A study of Mus musculus with 6 samples.

Results

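The macrophages of malignant pleural effusion (MPE) were examined here for 10 genes of the interleukin-10 (IL-10) pathway: the cytokine gene Il10, the receptor genes Il10ra and Il10rb, the signal transducer Stat3, and 6 target genes, Socs3, Bcl3, Nfil3, Etv3, Sbno2 and Zfp36. The genes were taken by symbol from a table of 23302 genes, in which all 10 were found, and all 10 were among the 11838 genes that reached 1 FPKM in at least 3 of the 6 libraries and were tested. FPKM counts sequenced fragments by transcript length in kilobases and relative to all fragments mapped in a library. C57BL/6 mice received MC38 cells (from a colon adenocarcinoma of the mouse) in the pleural cavity, and 10 days later macrophages were isolated from the effusion with microbeads against F4/80, a surface protein of mouse macrophages. RNA of 3 WT samples and 3 samples labelled IL-10-/- was sequenced. All 6 samples thus came from tumour-bearing mice, and no mice without tumour were included. IL-10-/- denotes mice meant to lack IL-10 in all host cells and not in macrophages alone, and the injected MC38 cells were the same in both groups. The study's methods identify the IL-10-/- line by a Jackson Laboratory stock number, with no description of the altered sequence. The WT mice came from another supplier, so that genotype and source cannot be told apart. The labels do not say whether a sample was 1 mouse or several, and the p-values measure only the spread between these samples.

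IL-10 is a cytokine that restrains inflammatory gene expression in macrophages. It binds a receptor of IL-10RA, the specific ligand-binding chain, and IL-10RB, a chain shared with receptors of related cytokines. The kinases JAK1 and TYK2, held by these chains, phosphorylate the receptor and STAT3, which then enters the nucleus and switches on its target genes. The targets studied here act in different ways. SOCS3 blocks signalling by gp130-type receptors, BCL3 is a nuclear protein that binds NF-κB dimers, NFIL3 and ETV3 are transcriptional repressors, SBNO2 is a corepressor, and tristetraprolin, encoded by Zfp36, marks AU-rich mRNAs for decay. Several of these genes are also switched on by stimuli other than IL-10, among them Toll-like receptor ligands and cytokines of the IL-6 family.

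The promoters of 3 target genes held the palindrome to which STAT dimers are known to bind, TTCNNNGAA, and are shown because the comparison turns on how STAT3 target genes stood in both genotypes. RefSeq promoter windows (GRCm38.p6, 250 bases before to 50 bases after the start) matched 7 of the 10 genes in 9 windows, and Il10, Il10ra and Il10rb had no entry. The palindrome reads the same on both strands and was found in 4 of these 9 windows, which belong to Socs3, Zfp36 and Sbno2 (in 2 windows), and in 2726 of all 32851 windows (8.30%). The 250 bases before each start are given 5′ to 3′ on the strand of the gene, with the palindrome in capitals. The Socs3 stretch is chr11:117969367-117969616 on the minus strand, the Zfp36 stretch chr7:28379229-28379478 on the minus strand and the Sbno2 stretch chr10:80101188-80101437 on the minus strand.
Socs3: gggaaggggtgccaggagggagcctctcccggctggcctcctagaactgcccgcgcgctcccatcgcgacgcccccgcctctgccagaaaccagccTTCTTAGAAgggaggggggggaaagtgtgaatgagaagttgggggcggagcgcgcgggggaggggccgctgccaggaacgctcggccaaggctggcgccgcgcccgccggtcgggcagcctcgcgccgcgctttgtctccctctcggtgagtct
Zfp36: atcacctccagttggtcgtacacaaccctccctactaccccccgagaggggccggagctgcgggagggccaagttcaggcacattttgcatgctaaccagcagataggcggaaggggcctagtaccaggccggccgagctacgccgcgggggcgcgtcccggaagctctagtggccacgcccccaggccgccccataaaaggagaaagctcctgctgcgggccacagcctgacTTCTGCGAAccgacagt
Sbno2: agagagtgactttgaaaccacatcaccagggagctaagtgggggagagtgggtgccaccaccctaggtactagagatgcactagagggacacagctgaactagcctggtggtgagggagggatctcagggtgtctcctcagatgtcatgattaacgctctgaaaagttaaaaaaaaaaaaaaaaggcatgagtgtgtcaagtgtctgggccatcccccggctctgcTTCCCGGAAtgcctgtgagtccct
The palindrome began 154 bases before the start in Socs3, 17 bases before it in Zfp36 and 24 bases before it in Sbno2. The windows of Stat3, Bcl3, Nfil3 and Etv3 did not hold these letters, which says nothing about binding elsewhere.

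The 6 libraries were similar in breadth, with 11602 to 11935 genes at 1 FPKM or more and an upper quartile of 11.7 to 12.2 FPKM. Their sums of FPKM ran from 885300 to 1125000, and the number of reads behind them is unknown. The 12 macrophage markers were present in every library, at a summed level of 9778 to 11950 FPKM in WT and 12840 to 15640 FPKM in the IL-10-/- labelled libraries. Much of this sum was Lyz2, at 3612 to 5460 FPKM in WT and 6714 to 9252 FPKM in the other group. Of the other macrophage markers, Csf1r was higher without overlap, Cd14 was lower without overlap, and the rest overlapped. These genes were named after their values were seen. The median log2 fold change of the 12 markers was 0.10, and 0 passed in limma. Markers of other cells differed too. The summed level of 7 monocyte markers was 4629 to 5354 FPKM in WT and 7620 to 11070 FPKM in the IL-10-/- labelled libraries. Most of this sum was Ly6c2 and Plac8, named after their values were seen. The summed level of the other 5 monocyte markers overlapped between the groups (1456 to 2658 FPKM and 1847 to 2222 FPKM). The summed level of 14 neutrophil markers was 666 to 867 FPKM and 227 to 295 FPKM. Platelet markers (6 genes) summed to 2594 to 3300 FPKM in WT and 482 to 935 FPKM in the other group. Nearly all of this sum was Pf4 and Ppbp, and the other platelet markers were at or below 2.62 FPKM in every library. Of those others, Gp9 and Itga2b were lower without overlap, while Gp1bb and Treml1 overlapped. The platelet genes, too, were named after their values were seen. Erythroid markers (6 genes) summed to 5694 to 12690 FPKM in WT and 971 to 3786 FPKM in the other group. B cell markers (10 genes) summed to 95.2 to 114 FPKM in WT and 41.5 to 82.9 FPKM in the other group, with 9 of 9 tested below 0, and dendritic cell markers (8 genes) to 116 to 187 FPKM and 89.2 to 95.4 FPKM, with 8 of 8 below 0. The sums of T cell markers overlapped (65.8 to 94.7 FPKM and 86.0 to 189 FPKM), with 11 of 12 tested above 0. No marker of any list was at 0 in all 6 libraries. The part of these cell populations in the results on the 10 genes was not tested.

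All 10 genes were expressed in both genotypes, with Zfp36 highest and Etv3 or Il10 lowest by mean. In WT macrophages the order of mean FPKM was Zfp36, Nfil3, Socs3, Stat3, Il10ra, Il10rb, Sbno2, Bcl3, Etv3 and Il10. Zfp36 stood alone at the top (425 to 632 FPKM), while the ranges of neighbours in this order overlapped from Nfil3 to Stat3, from Il10ra to Bcl3, and between Etv3 and Il10. In the IL-10-/- labelled libraries the order of the 5 highest genes was the same, and Il10 stood in sixth place, between Il10ra and Sbno2. There, neighbours overlapped from Nfil3 to Stat3 and from Il10 over Sbno2 to Il10rb, and the other neighbours did not.

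**Figure D1:**
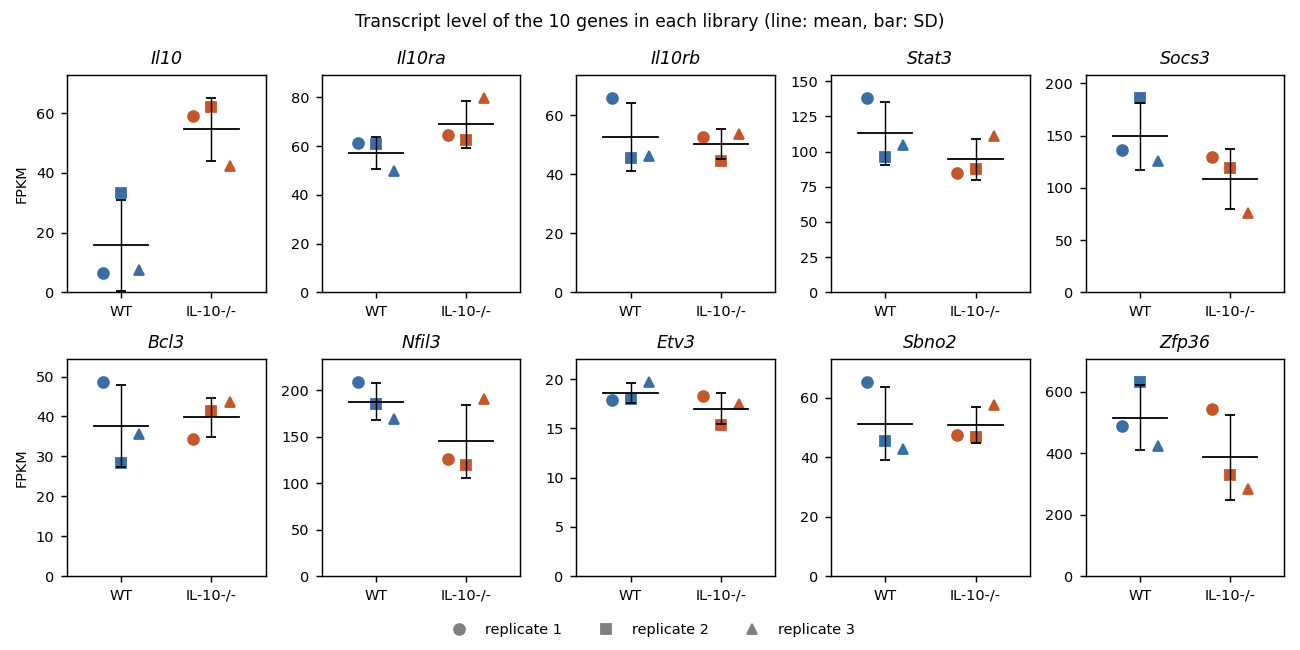
FPKM of each of the 10 genes (1 panel per gene, vertical axis from 0) in the 3 WT libraries (blue) and the 3 IL-10-/- labelled libraries (orange), with the replicate given by the symbol, the mean by a line and the SD by a bar. Il10 and Il10ra are the genes whose groups do not overlap, and Il10 has WT replicate 2 (33.3 FPKM) far above the other WT libraries.

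Il10, the ligand of the pathway and the gene that the IL-10-/- mice were meant to lack, was transcribed in all 6 libraries and every library labelled IL-10-/- held more of it than every WT library. The gene (ENSMUSG00000016529) has 5 exons between 131019845 and 131024974 on chromosome 1 (GRCm38, plus strand). Its level was 6.43, 33.3 and 7.33 FPKM in WT replicates 1, 2 and 3 and 59.2, 62.0 and 42.4 FPKM in replicates 1, 2 and 3 labelled IL-10-/-. WT replicate 2 held 5.18 times the level of WT replicate 1 and 4.54 times that of WT replicate 3, whereas the libraries of the other group differed by no more than 1.46 times. The groups did not overlap, with the lowest IL-10-/- labelled library at 1.27 times the highest WT library. Mean levels were 15.7 ± 15.2 FPKM in WT and 54.5 ± 10.6 FPKM in the other group (SD, n = 3 each), and the log2 of the fold change of FPKM + 1 (log2FC, IL-10-/- label against WT) was 2.09 (standard error 0.53, 95% interval 0.88 to 3.30). This did not pass the test after adjustment over all genes (limma adjusted p = 0.14). Without WT replicate 2 it was 2.80 and passed (limma adjusted p = 0.0049), and over the 15 alternatives the adjusted p ran from 0.0049 to 0.43. Because the IL-10-/- labelled libraries held more of the transcript than WT, the label is used as a name of the group, and a value per gene does not show which exons were read or whether protein can be made. In bulk samples, fewer cells of a type and less RNA per cell cannot be told apart, which holds for every level given here.

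Both receptor chains were well expressed in both groups, and neither passed the test. Il10ra lies on chromosome 9 (45253837 to 45269149, minus strand) and was measured at 61.3, 60.7 and 49.8 FPKM in WT and at 64.5, 62.4 and 79.8 FPKM in the IL-10-/- labelled libraries. The groups did not overlap, although the lowest IL-10-/- labelled library lay only just above the highest WT library. The log2FC was 0.26 (standard error 0.16, 95% interval −0.10 to 0.62) and did not pass the test (limma adjusted p = 0.65). Il10rb lies on chromosome 16 (91406164 to 91425834, plus strand) and was measured at 65.9, 45.6 and 46.0 FPKM in WT and at 52.5, 44.4 and 53.8 FPKM in the other group. Here the groups overlapped, and WT replicate 1 was the highest of the 6 libraries. The log2FC of −0.05 (standard error 0.18, limma adjusted p = 0.96) had an interval from −0.46 to 0.36, so that differences of up to about these sizes cannot be told from none.

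Stat3, which carries the signal from the receptor to the nucleus, was among the more strongly expressed of the genes in both groups. Its 24 exons span 100885098 to 100939540 on the minus strand of chromosome 11. Stat3 was at 138, 95.8 and 105 FPKM in WT and at 84.7, 87.6 and 111 FPKM in the IL-10-/- labelled libraries. WT replicate 1 was highest and replicate 3 labelled IL-10-/- second, so that the groups overlapped. Mean levels were 113 ± 22.3 and 94.5 ± 14.6 FPKM (SD, n = 3 each), with a log2FC of −0.25 (standard error 0.18, 95% interval −0.67 to 0.17, limma adjusted p = 0.74). A transcript level does not report the phosphorylation of STAT3.

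None of the 10 genes passed an adjusted p of 0.05 in limma, where 129 of the 11838 genes tested did (1.09%). At a fold change of at least 2 with an unadjusted p under 0.05, the thresholds of the study's methods, Il10 was the only gene of the 10, against 105 genes higher in the IL-10-/- labelled libraries among all tested (0.887%). Il10 was also the only gene of the 10 with an unadjusted p under 0.05, against 10.8% of all genes. Groups that did not overlap, with the IL-10-/- labelled libraries higher, were found for Il10 and Il10ra (2 of 10, against 7.80% of all genes). For Il10 and for Il10ra the exact two-sided permutation test gave p = 0.1, the smallest that 3 against 3 libraries allow. No gene of the 10 had groups that did not overlap in the other direction (0 of 10, against 7.59% of all genes). Each of these counts was 2 or fewer, and none is read as a result about the 10 genes.

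**Figure D2:**
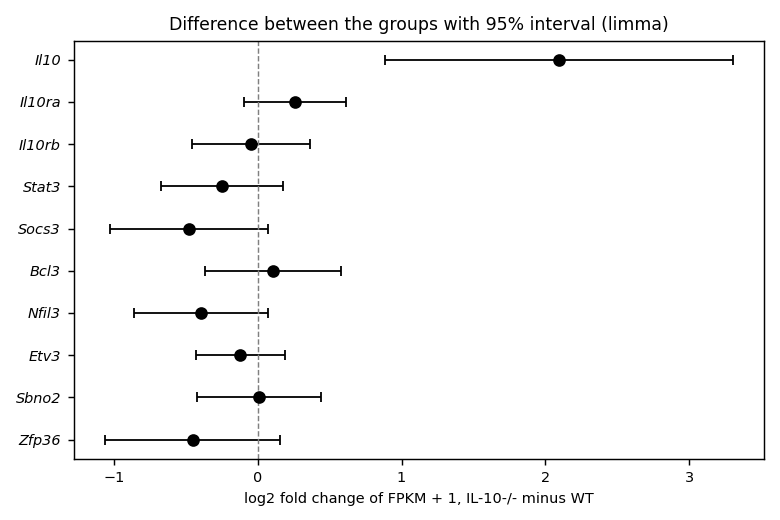
Log2FC of FPKM + 1 (IL-10-/- labelled libraries minus WT, horizontal axis) of the 10 genes with the 95% interval from limma, for 3 libraries per group. Il10 (2.09, interval 0.88 to 3.30) is the one gene whose interval does not include 0, before adjustment over all genes.

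The 6 target genes did not differ between the groups beyond the spread of the libraries. Of these, 4 were below 0 and 2 above, with a median log2FC of −0.26, and over all genes tested 50.5% were below 0 with a median of −0.0025. The median of the 6 genes was −0.16 without replicate 2 labelled IL-10-/-. The largest differences were those of Socs3 and Zfp36. Socs3 (ENSMUSG00000053113, chromosome 11, 117966079 to 117970047, minus strand), whose promoter stretch is given above, was at 136, 186 and 125 FPKM in WT and at 130, 119 and 75.6 FPKM in the IL-10-/- labelled libraries. Its groups overlapped, with WT replicate 2 highest and replicate 3 labelled IL-10-/- lowest. The log2FC was −0.48 (standard error 0.24, 95% interval −1.03 to 0.08, limma adjusted p = 0.56). Zfp36 (chromosome 7, 28376784 to 28380253, minus strand, 2 exons), which encodes tristetraprolin, was at 490, 632 and 425 FPKM in WT and at 543, 331 and 285 FPKM in the other group. Here too WT replicate 2 was highest and replicate 3 labelled IL-10-/- lowest, while replicate 1 labelled IL-10-/- lay above 2 of the WT libraries. The log2FC was −0.45 (standard error 0.26, 95% interval −1.06 to 0.16, limma adjusted p = 0.65).

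The genes of the transcriptional repressors gave differences of similar or smaller size. Nfil3, which encodes a basic leucine zipper repressor, lies on chromosome 13 (52967209 to 52981073, minus strand). It was at 209, 185 and 169 FPKM in WT and at 126, 119 and 190 FPKM in the IL-10-/- labelled libraries. Only replicate 3 of the latter reached the WT range, and the log2FC was −0.39 (standard error 0.20, 95% interval −0.86 to 0.07, limma adjusted p = 0.57). Etv3, an ETS-family repressor gene on chromosome 3 (87525407 to 87540156, plus strand), varied least, at 17.9, 18.0 and 19.7 FPKM in WT and 18.3, 15.3 and 17.4 FPKM in the other group. Its groups overlapped, and its log2FC of −0.12 (standard error 0.13, limma adjusted p = 0.85) had the narrowest interval of the 10 genes, −0.43 to 0.19.

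Bcl3 and Sbno2 had almost the same mean in both groups. Bcl3 (chromosome 7, 19808462 to 19822770, minus strand), which encodes a nuclear partner of NF-κB, was at 48.6, 28.4 and 35.7 FPKM in WT and at 34.4, 41.3 and 43.6 FPKM in the IL-10-/- labelled libraries. The WT libraries held both the highest and the lowest of the 6 values. Its log2FC was 0.11 (standard error 0.21, 95% interval −0.37 to 0.58, limma adjusted p = 0.93). Sbno2 (chromosome 10, 80057416 to 80102698, minus strand, 33 exons), the corepressor gene, was at 65.2, 45.3 and 42.9 FPKM in WT and at 47.5, 46.9 and 57.6 FPKM in the other group. Mean levels were 51.1 ± 12.3 and 50.7 ± 6.02 FPKM (SD, n = 3 each), with a log2FC of 0.01 (standard error 0.19, 95% interval −0.42 to 0.44, limma adjusted p = 1.00).

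The sources used here do not say whether reads were counted by strand, and several of these genes overlap others on the opposite strand. The end of Stat3 overlaps that of Stat5a (7.67 to 20.2 FPKM), Bcl3 overlaps the antisense gene Gm16174 (0.597 to 4.11 FPKM) and Zfp36 the antisense gene Gm44710 (0.164 to 0.765 FPKM). Within Il10ra lies the pseudogene Gm20612, listed at 0 to 16.6 FPKM. Reads of these pairs may not be separable.

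Most of the 10 genes followed either of a pair of library patterns, which were noticed in these values, while Il10, Il10ra and Etv3 followed neither. Because the patterns were picked from these same genes, the shares of all genes given beside them are no test. In Il10rb, Stat3, Bcl3, Nfil3 and Sbno2 the highest library was WT replicate 1 and the second was replicate 3 labelled IL-10-/- (5 of 10 genes, against 988 of the 11838 genes tested, 8.35%). These same libraries had the lowest summed level of the 9 markers of resident cavity macrophages, at 384 and 302 FPKM against 982 to 1715 FPKM in the other 4. Most of this sum was Prg4 and Alox15. Lyve1 and Vsig4 did not have these libraries as their lowest pair, while each of the other markers did. These markers were named after their values were seen. With both left out, an alternative chosen after the data were seen, Nfil3 had a log2FC of −0.52 (limma adjusted p = 0.10) and none of the 10 genes passed. In Socs3 and Zfp36 WT replicate 2 was highest and replicate 3 labelled IL-10-/- lowest (2 of 10 genes, against 2.80% of all genes). A list of 24 immediate early and handling genes, which respond within minutes to cell isolation and to stimulation, had 24 of 24 log2FC values below 0 (median −0.52), and 5 of the 24 had this same order of libraries. Of the 24, 1 passed the test, the heat shock gene Hspa1a (log2FC −2.77, limma adjusted p = 0.040). It had another order, with WT replicate 3 highest and replicate 2 labelled IL-10-/- lowest. The call of Hspa1a was lost when any library other than WT replicate 1 was left out, with an adjusted p of up to 0.17. The part of resident macrophages, of isolation or of stimulation in these patterns was not tested.

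**Figure D3:**
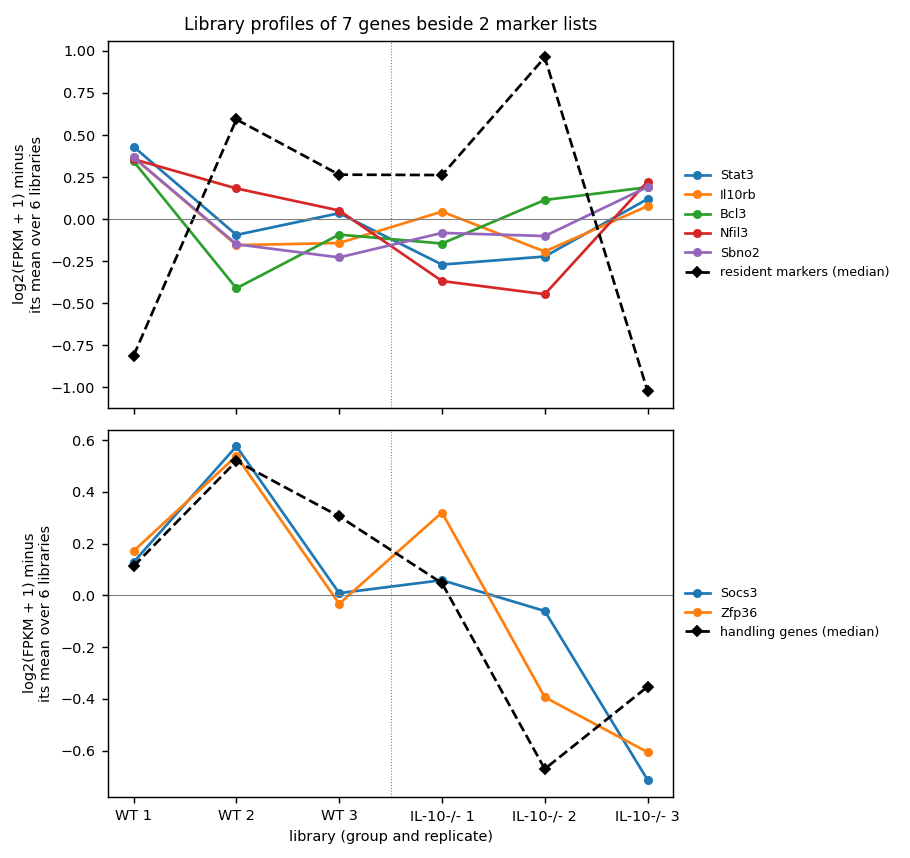
Log2(FPKM + 1) minus its mean over the 6 libraries (vertical axis) across the libraries (horizontal axis), above for Stat3, Il10rb, Bcl3, Nfil3 and Sbno2 with the median of the resident cavity macrophage markers (dashed), below for Socs3 and Zfp36 with the median of the handling genes (dashed). The 5 genes above peak in WT replicate 1, where the resident markers are low. Socs3 and Zfp36 peak in WT replicate 2, as does the median of the handling genes, though not each of these genes. That median is lowest in replicate 2 labelled IL-10-/- (−0.67, against −0.35 in replicate 3), whereas Socs3 and Zfp36 are lowest in replicate 3.

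The rest of the signalling chain was examined with a list of 19 genes of the JAK-STAT core and its phosphatases, of which 0 passed in limma, 4 were higher and 0 lower at an unadjusted p under 0.05. For Stat2, a transducer of interferon signals, the log2FC was 0.63 (limma adjusted p = 0.14). The kinases of the IL-10 receptor, chosen after their values were seen, were Tyk2 with a log2FC of 0.49 (limma adjusted p = 0.37) and Jak1 with −0.12 (limma adjusted p = 0.87). Of the 8 SOCS genes, which encode feedback inhibitors of cytokine receptors, none passed in limma and none had an unadjusted p under 0.05. The smallest p among those other than Socs3 were those of Cish (log2FC 0.45, limma adjusted p = 0.56) and Socs6 (0.21, limma adjusted p = 0.67).

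Cytokines and receptors that also signal through STAT3, by gp130 and related receptors, were tested as 11 genes. Csf3r, the receptor of granulocyte colony-stimulating factor, fell from 50.9 ± 3.53 to 24.8 ± 3.58 FPKM (SD, n = 3 each, log2FC −1.01, limma adjusted p = 0.025), and it is also on the neutrophil list, whose summed level was lower in the same libraries. Its call was lost without WT replicate 2 or 3 or without replicate 1 or 2 labelled IL-10-/-, with an adjusted p of up to 0.10. Il27, a subunit of a cytokine that can induce Il10 in T cells, was at 3.93 ± 1.61 FPKM in WT and 12.8 ± 3.32 FPKM in the other group (SD, n = 3 each) and did not pass (log2FC 1.51, limma adjusted p = 0.062). Of the IL-10 family, 4 of the 14 genes listed were tested and 0 passed in limma, with 1 at an unadjusted p under 0.05, Il10 itself. Il20rb, a receptor chain of this family, had a log2FC of 0.29 (limma adjusted p = 0.67).

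Of 20 other genes that IL-10 is known to induce in macrophages, 3 fell and 0 rose, and 14 of the 20 log2FC values were below 0 (median −0.14). Cd163, the haemoglobin scavenger receptor, was at 65.7, 40.8 and 37.5 FPKM in WT and at 9.42, 7.40 and 11.8 FPKM in the IL-10-/- labelled libraries (log2FC −2.19, limma adjusted p = 0.0067). Ddit4, an inhibitor of mTORC1 that responds to hypoxia and glucocorticoids, was at 114, 115 and 124 FPKM in WT and at 24.2, 24.0 and 41.9 FPKM in the other group (log2FC −1.98, limma adjusted p = 0.0065). Both groups of libraries were well apart in these genes, and both calls held in all 6 fits that left out a library. Hmox1, encoding haem oxygenase 1 and named here after its values were seen, also fell (log2FC −1.27, limma adjusted p = 0.025), and its call was lost in 4 of these 6 fits, without WT replicate 2 or 3 or replicate 1 or 2 labelled IL-10-/- (adjusted p of up to 0.12). Haem-handling genes stand beside a summed level of erythroid markers that was lower in the IL-10-/- labelled libraries, and the part of this in their values was not tested. Of 16 general STAT3 target genes tested, 1 rose and 0 fell in limma, and 11 of the 16 log2FC values were below 0 (median −0.13). Several of these genes are also among the 20 described before. The gene that rose was Fgl2, which encodes a prothrombinase-like secreted protein. It went from 139 ± 8.41 to 232 ± 13.7 FPKM (SD, n = 3 each, log2FC 0.73, limma adjusted p = 0.048). The call of Fgl2 was lost when any library other than WT replicate 1 was left out (adjusted p of up to 0.27). Bcl2l1, which encodes the survival protein BCL-XL, had a log2FC of −0.60 (limma adjusted p = 0.13).

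Genes that IL-10 represses in macrophages did not have higher levels as a list in the IL-10-/- labelled libraries. Of the 19 tested, 1 fell and 0 rose in limma, and 14 of 19 log2FC values were below 0 (median −0.49). The gene that fell was Cxcl3, a neutrophil-attracting chemokine, at 646, 446 and 334 FPKM in WT and at 91.3, 47.0 and 92.2 FPKM in the other group (log2FC −2.63, limma adjusted p = 0.011), and its call held in all 6 fits that left out a library. Il23a, a subunit of interleukin-23, had a log2FC of −1.42 (limma adjusted p = 0.10). The inflammatory cytokine genes Tnf and Il1b, chosen after their values were seen, had log2FC values of −0.34 and −0.42, and in both the highest library was WT replicate 2. The list was not uniformly lower. At an unadjusted p under 0.05, 6 of its genes were lower and 1 was higher. The higher gene was Cd40, also named after its values were seen (log2FC 0.95, limma adjusted p = 0.15, groups without overlap). Among 14 mRNAs known to be bound by tristetraprolin, 11 were below 0 (median −0.57) and Cxcl3 passed. Of these 14 genes, 10 are also among the 19 of the previous list, so that both lists largely describe the same genes. The list also holds Il10, whose mRNA tristetraprolin is known to bind.

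**Figure D4:**
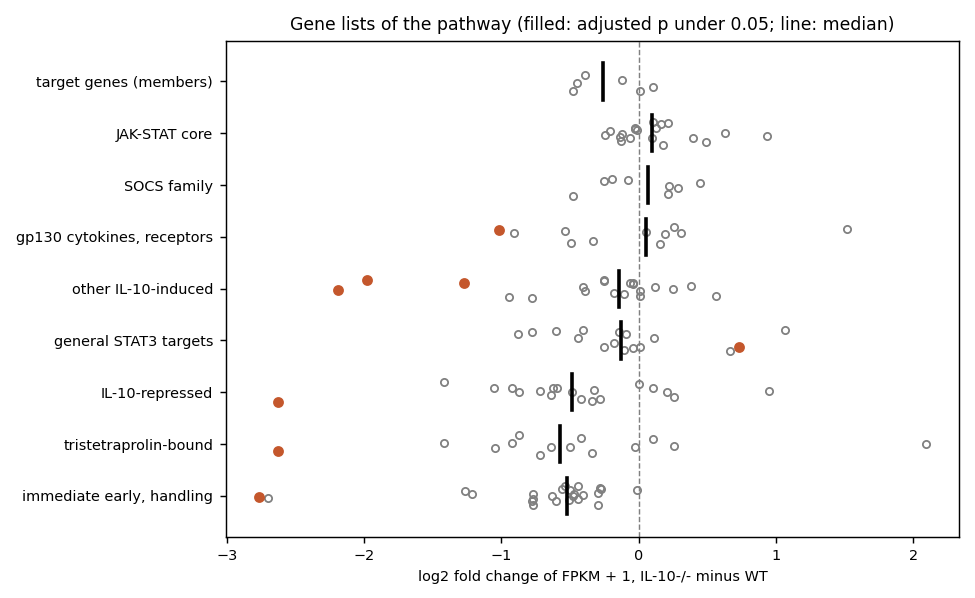
Log2FC of FPKM + 1 (IL-10-/- labelled libraries minus WT, horizontal axis) of each tested gene in 9 lists, with genes of an adjusted p under 0.05 filled and the median of each list as a vertical line. The 6 target genes lie between −0.48 and 0.11, and the filled points of Ddit4 (−1.98), Cd163 (−2.19) and Cxcl3 (−2.63) lie farther left.

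Paralogs and partners of the target genes gave 0 calls among 10 tested in limma, with 3 at an unadjusted p under 0.05. Sbno1, the paralog of Sbno2, had a log2FC of −0.40 (limma adjusted p = 0.38), and Mapk14, the p38 kinase upstream of tristetraprolin, one of 0.35 (limma adjusted p = 0.43).

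The profile across the 6 libraries was compared with that of every other protein-coding gene tested for the 3 genes that varied most, Il10, Zfp36 and Socs3, by the root mean square difference of centred log2 values. The genes nearest to Il10 were Cxcl10, Iigp1 and Gbp2b, which interferon is known to induce, at differences of 0.51, 0.53 and 0.58. Cxcl10, a chemokine, was at 18.6, 41.1 and 23.5 FPKM in WT and at 79.6, 84.6 and 58.1 FPKM in the IL-10-/- labelled libraries, so that WT replicate 2 was the highest WT library as it was for Il10. The genes nearest to Zfp36 were Osm, Asf1b and Sytl2, at differences of 0.09, 0.09 and 0.12. Osm, a cytokine of the IL-6 family, was at 183, 247 and 153 FPKM in WT and at 192, 112 and 115 FPKM in the other group. Those nearest to Socs3 were Ier3, Sec22c and Lif, at differences of 0.12, 0.13 and 0.14. Ier3, an immediate early gene, was at 370, 527 and 375 FPKM in WT and at 378, 286 and 237 FPKM in the other group. These are the closest of many genes over 6 libraries, and likeness of profile is a description only.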

How the data were processed

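Macrophages of MPE from 3 WT and 3 IL-10-/- samples were assigned to groups by title. Libraries were made from poly(A) RNA (NEBNext Ultra) and sequenced as paired ends, and the values the authors deposited are FPKM per gene and library. GRCm38 is the build in the submitters' processing notes. The aligner, counting tool, annotation and use of strand are not given in the sources at hand. Columns of the authors' own comparison (deposited p-values, q-values, fold changes and calls) were not used. FPKM keeps no read totals, so depth per library is unknown and precision is given by the spread between libraries.

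The 11838 genes that reached 1 FPKM in 3 or more of the 6 libraries were analysed in R 4.3.3 with limma 3.58.1 on log2(FPKM + 1), with an intensity trend in the variance, two-sided, with Benjamini-Hochberg adjustment over all of them. Fold changes on this scale understate those of low genes. Single values were compared by an exact two-sided permutation test. The code was tested on simulated data. The 10 genes and the gene lists were chosen with earlier results of these data known. Besides the 10 genes, the text names from each list other than the marker lists the 2 measured genes with the smallest p, and for the 3 genes with the largest SD the 3 protein-coding genes of nearest profile. Any other gene is marked as named after its values were seen. A gene taken by the rule is not reported here. Coordinates came from the deposited table, strand and exons from GENCODE, and promoters from RefSeq.

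Results were recomputed with a pseudocount of 0.1, without the filter, with quantile normalization, a filter at 5 FPKM, no variance trend, FPKM scaled to equal sums, the replicate number as a block, array weights, and each library left out in turn. Leaving out both libraries low in resident macrophage markers was added after the data were seen.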

Additional observations from a re-analysis of the deposited data

How the results depend on the processing

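Of 150 values of the 10 genes under 15 alternatives each, 141 kept direction and side of the threshold, 8 reversed and 1 became significant. None of the 10 genes was called in the main fit, so no call could be lost. Keeping the side of the threshold thus meant remaining without a call. The reversals were in genes with differences near 0. Il10rb was at 0.036 with FPKM rescaled to an equal sum and at 0.074 with both libraries low in resident macrophage markers left out, and ran from −0.14 to 0.12 when a library was left out. Leaving out a library moved Bcl3 between −0.073 and 0.30 and Sbno2 between −0.11 and 0.19. It moved Il10 between 1.70 and 2.80, Il10ra between 0.15 and 0.33, Stat3 between −0.37 and −0.095, Socs3 between −0.62 and −0.24, Nfil3 between −0.60 and −0.27, Etv3 between −0.17 and −0.050, Zfp36 between −0.73 and −0.26, the median of the 6 target genes between −0.29 and −0.16, and the number of the 10 genes called between 0 and 1. The gene called was Il10, without WT replicate 2 (2.80, limma adjusted p = 0.0049). The cause of these changes was not tested. Replicate numbers were not taken to pair the samples, since the correlations of same-numbered deviations were 0.086, 0.20 and 0.090, although every sample correlated best with its own number, which is a hint only. With the replicate block, Il10 was at 2.09 (limma adjusted p = 0.11), 0 of the 10 genes were called, and over all genes 36 were higher and 25 lower, against 72 and 57 without it. The other counts over all genes that moved by more than 1.5 times were 22 higher and 10 lower without a filter and 248 and 234 with array weights, and 152 and 129 with both libraries low in resident macrophage markers left out. When a library was left out these counts ran from 26 to 78 higher and from 14 to 62 lower. Read totals are unknown, and precision is limited to the intervals that 3 libraries per group gave.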

Other observations

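Of 20 inducers and regulators of Il10 tested, among them transcription factors and genes of Toll-like receptor signalling, 0 passed in limma, 0 had an unadjusted p under 0.05, and 9 were above and 11 below 0 (median log2FC −0.03). Myd88, the adaptor of most Toll-like receptors, was at 80.2 ± 6.77 FPKM in WT and 93.5 ± 0.780 FPKM in the IL-10-/- labelled libraries (SD, n = 3 each, log2FC 0.22, limma adjusted p = 0.64), and Tlr4, the receptor of lipopolysaccharide, was at 44.4 ± 7.25 and 52.3 ± 5.21 FPKM (SD, n = 3 each, log2FC 0.24, limma adjusted p = 0.71). Of the other cytokines of the IL-10 family, and chosen after their values were seen, Il19 was at or below 0.0906 FPKM and Il22 at or below 0.175 FPKM in every library.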
